A study of Mus musculus with 24 samples.

Results

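The RNA of mouse neural progenitors was compared with that of the embryonic stem cells from which such progenitors are made, over the whole transcriptome. Members were all genes of the 3 neural progenitor (NP) and the 3 embryonic stem cell (ESC) RNA-seq libraries, which are 6 of the 24 samples of the series. The other samples hold bisulfite sequencing of a bacterial DNA fragment inserted into the genome and carrying transcription factor motifs, used to ask which factors protect DNA from methylation or remove it, and 3 RNA-seq libraries of a line without TET enzymes. The RNA-seq tables serve that study as a record of which factors each cell type expresses. Both groups carry the strain label C57BL/6 X 129S5 and a wild-type genotype. ESCs of the TC-1(WT) line were kept on gelatin with LIF, the cytokine that holds mouse ESCs in self-renewal. NPs were made from ESCs as floating aggregates, for 4 days without LIF and for 4 more days with 5 µM retinoic acid, and were collected on day 8. The line carries a cassette for recombinase-mediated exchange in the β-globin locus, and the labels do not say whether the RNA came from cells with an inserted fragment. The study's methods call the RNA-seq replicates biological, but neither they nor the labels say whether these were separate cultures or differentiations, so the p-values measure only the spread between these libraries.

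ESCs of this kind correspond to the naive epiblast of the blastocyst, and a network of transcription factors around OCT4, SOX2 and NANOG holds them undifferentiated. Aggregates without LIF leave that state, and retinoic acid then directs them to a neural fate of hindbrain and spinal cord character, because it binds nuclear receptors that act directly on Hox genes and on genes of its own breakdown. Progenitors of this kind are dividing, radial glia-like cells marked by Pax6 and Nestin, from which neurons and later glia arise.

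Read counts were available for 51912 genes in every library, with 20570050 to 23976914 counted reads per ESC library and 20519702 to 22132988 per NP library. Levels are given as RPKM, that is counted reads scaled by exon length and by library total, the totals being adjusted with TMM factors. A gene was tested if it reached 1 RPKM in at least 1 library, which 15197 genes did. A gene near 0 in one group can pass this filter only through the other. In lists of such genes the filter partly sets the share called among tested members. It was called higher or lower in NPs when the fold change was at least 3 and the adjusted p was below 0.001 in edgeR's quasi-likelihood test with Benjamini-Hochberg adjustment over all tested genes; every adjusted p below comes from that test, with n = 3 libraries per group. The cell labels held for their defining markers: the 8 ESC markers summed to 2617 to 2656 RPKM in ESCs and to 5.47 to 25.5 RPKM in NPs, and the 9 neural progenitor markers to 13.7 to 14.96 RPKM in ESCs and to 246 to 449 RPKM in NPs. The NP libraries were less alike than the ESC libraries. NP replicate 2 had the highest sum of ESC markers (25.5 RPKM, against 9.13 and 5.47) and of fibroblast markers (37.8 RPKM, against 19.6 and 3.80), and the lowest sum of neural progenitor markers (246 RPKM, against 449 and 331) and neuron markers (95.1 RPKM, against 220 and 183). Its part in the results was not tested beyond fits without it. In bulk RNA, fewer cells of a type and less RNA per cell cannot be told apart.

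Of the 15197 genes tested, 3408 were called, or 22.4%: 1891 were higher in NPs (12.4%) and 1517 lower (9.98%). Counts of calls in the lists below have to be read beside these shares. Fitted fold changes were wide, with 821 genes higher and 878 lower by at least 10 fold and 217 higher and 184 lower by at least 100 fold. For genes without a read in one group the fitted fold exceeds the lower bound that the reads give. The non-coding 1700097N02Rik was fitted at 769-fold lower, with a bound of 97.0. The counts at 100 fold therefore rest in part on such fitted values. The 3 libraries of one group did not overlap those of the other in 71.8% of tested genes, so a lack of overlap by itself is the common state here. Most genes were nevertheless shared: 11796 genes reached 1 RPKM in all ESC libraries, 11650 in all NP libraries and 10176 in both. The most abundant transcripts belonged to this common part, and of the 10 genes with the highest mean RPKM in ESCs (mitochondrial mt-Co1, mt-Nd1 and mt-Cytb, the chaperone gene Hsp90ab1, the translation genes Rpl8, Rplp1, Rpl4, Eef2 and Eef1a1, and the row Mir6236) none was called. Among the 10 highest genes in NPs, 1 was called: Mdk, encoding the secreted growth factor midkine, was at 94.1, 98.2 and 99.9 RPKM in the ESC libraries and at 1538, 1447 and 1206 RPKM in the NP libraries (log2 fold change 3.84 ± 0.13 (SE), adjusted p = 3.64e-07). It was also the called gene with the largest gain in mean RPKM.

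**Figure D1:**
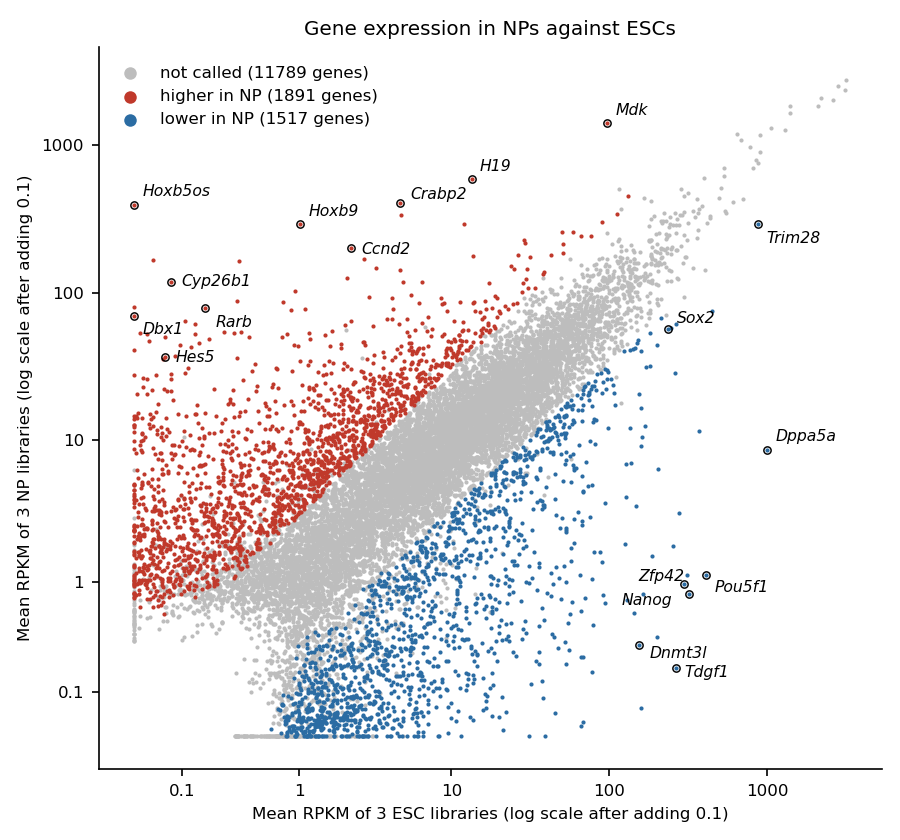
Mean RPKM of each tested gene in the 3 ESC libraries (horizontal axis) and the 3 NP libraries (vertical axis), both on a log scale after adding 0.1, with called genes in red (1891 higher in NPs) and blue (1517 lower). Genes such as Hoxb5os and Dbx1 lie at the left edge, at 0 in ESCs, and Tdgf1 and Dnmt3l lie at the bottom right, while most genes follow the diagonal.

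The pluripotency network was lost almost as a whole. Of 35 listed genes, all of them tested, 33 fell and none rose, with a median log2 fold change of -6.58 against 0.04 over all genes tested. Pou5f1, which encodes OCT4, was at 411, 433 and 395 RPKM in ESCs and at 0.985, 1.90 and 0.514 RPKM in NPs (log2 fold change -8.49 ± 0.41 (SE), adjusted p = 1.35e-06). Nanog stood at 303, 308 and 281 RPKM in ESCs and at 0.922, 1.603 and 0.371 RPKM in NPs (-8.25 ± 0.42 on the log2 scale, adjusted p = 1.72e-06). The 2 groups did not overlap for either gene, as in 71.8% of all tested genes. In NPs the highest value of both was that of replicate 2. All 14 naive factors of the list fell: Zfp42 (REX1) went from a mean of 319.5 to 0.817 RPKM, Esrrb, a nuclear receptor, from 163 to 0.811, Tfcp2l1 from 94.0 to 0.692, and Prdm14 from 22.3 to 0.0463. The Krüppel-like factors kept more of their RNA, with Klf4 at 2.92, 2.69 and 3.17 RPKM and Klf5 at 3.92, 5.75 and 5.08 RPKM in the NP libraries against means of 75.8 and 78.0 in ESCs. Dppa5a, an RNA-binding protein gene of early embryos, showed the largest loss of RNA of any called gene, from 983, 1019 and 1010.3 RPKM to 5.33, 17.7 and 2.76 RPKM (log2 fold change -6.85 ± 0.61 (SE), adjusted p = 2.63e-05). It varied between NP libraries, and replicate 2 held the most.

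Secreted factors and their co-receptors fell with the factors. Tdgf1, the Nodal co-receptor Cripto, was at 267, 259 and 273 RPKM in ESCs and at 0.0751, 0.452 and 0.0353 RPKM in NPs (log2 fold change -10.40 ± 0.52 (SE), adjusted p = 1.59e-06). Means fell from 70.1 to 0.761 RPKM for the ligand Nodal, from 79.9 to 0.462 for its antagonist Lefty1, from 55.6 to 0.283 for Gdf3 and from 78.2 to 0.171 for the growth factor Fgf4. Exceptions to the loss were few. Sox2 fell by less, from 227, 229.8 and 256 RPKM to 65.6, 50.6 and 53.9 RPKM (log2 fold change -2.07 ± 0.13 (SE), adjusted p = 5.05e-06), so that it stayed well expressed in NPs; it is a factor of both ESCs and neural progenitors. Sall4 (14.04, 12.2 and 10.1 RPKM in NPs) and Lin28a (16.9, 23.8 and 22.2 RPKM) also kept a part of their level. The 2 listed genes that were not called were Epcam, an epithelial adhesion molecule at a mean of 61.0 RPKM in ESCs and 52.2 in NPs, and the RNA-binding protein gene Lin28b, at 4.19 and 8.0005 RPKM. The metabolic gene Tdh, threonine dehydrogenase, on which mouse ESCs depend, was at 194, 199 and 215 RPKM in ESCs and at 0.376, 0.372 and 0.353 RPKM in NPs (log2 fold change -9.10 ± 0.15 (SE), adjusted p = 3.71e-08).

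**Figure D2:**
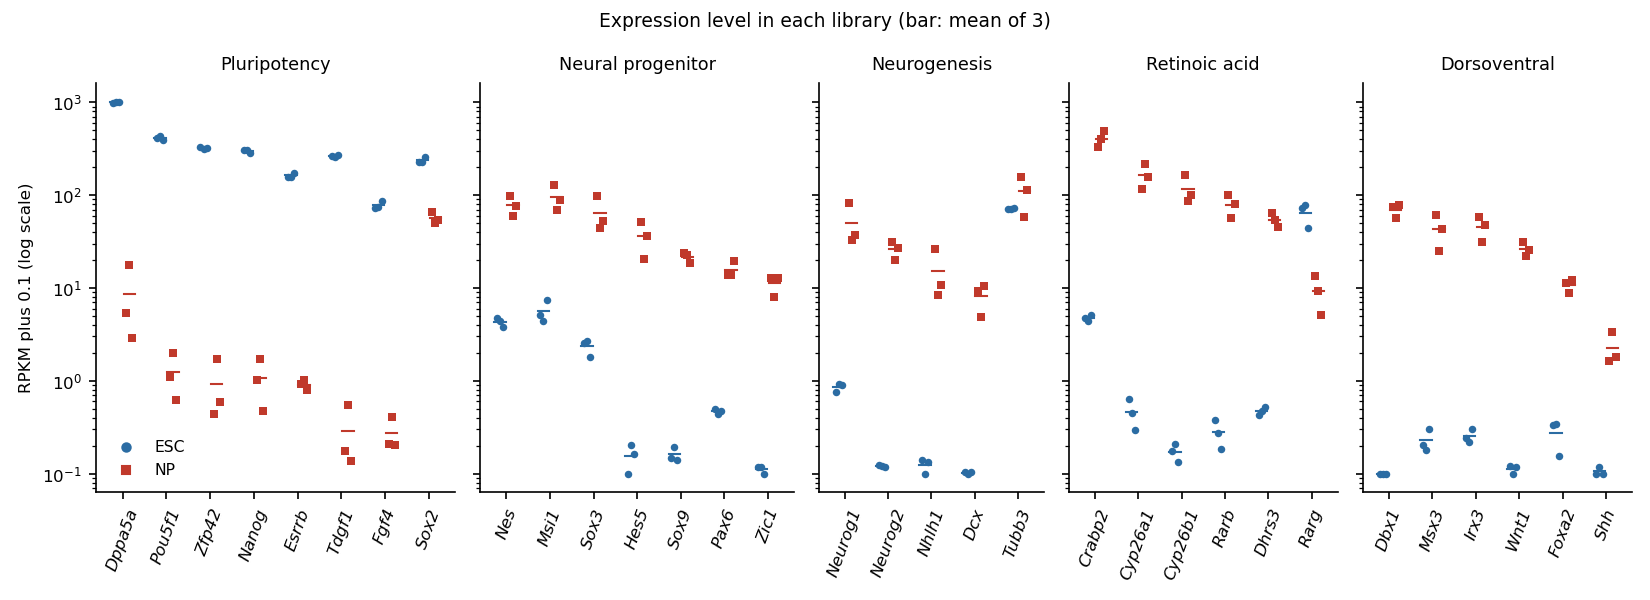
RPKM plus 0.1 on a log scale for selected genes in each library, with blue circles for the 3 ESC libraries, red squares for the 3 NP libraries and a bar at the mean of each group. The groups lie far apart for most genes, Sox2 and Rarg fall by less than the other falling genes shown, and Tubb3 overlaps between groups.

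The promoter of Nanog holds a paired octamer and Sox site, the combined element bound by OCT4 with SOX2.
Its window of 250 bases before and 50 after the start is shown because the gene and Pou5f1 fell together; it is chr6:122707239-122707538 on the plus strand of GRCm38.p6 in RefSeq, with the site in capitals, read as an octamer part TTGCAT that is followed, after any single base, by the Sox part ACAA:
Nanog: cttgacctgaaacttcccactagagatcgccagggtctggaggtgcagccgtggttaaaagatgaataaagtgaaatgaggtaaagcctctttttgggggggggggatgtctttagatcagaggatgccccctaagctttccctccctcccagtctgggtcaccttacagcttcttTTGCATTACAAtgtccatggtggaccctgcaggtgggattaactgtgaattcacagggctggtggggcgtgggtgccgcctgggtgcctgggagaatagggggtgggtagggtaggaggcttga

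The match lies 74 to 64 bases before the start. The same letters, on either strand, occur in 49 of 32851 promoter windows of that length (0.149%), which belong to 47 genes. Besides Nanog, the genes of these that were called were Pipox, which was lower in NPs, and Astn1 and Nrarp, which were higher.

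The signals that act on the naive state changed in part. Of 10 tested genes of the LIF and JAK-STAT list, 4 fell and 1 rose: the LIF receptor gene Lifr fell from a mean of 14.7 to 2.32 RPKM and the feedback inhibitor Socs3 from 47.9 to 9.97, while the kinase gene Jak2 rose from 2.91 to 16.6. Stat3, the transcription factor of the pathway, was at 18.7, 18.8 and 19.2 RPKM in ESCs and at 5.66, 10.5 and 4.93 RPKM in NPs. It was not called in the test described above. It was lower with upper quartile scaling (log2 fold change -1.70) and without NP replicate 2 (-1.85, adjusted p = 1.72e-05). Genes of the primed epiblast, the state that follows the naive one, were not a common feature of the day 8 cells, with 5 of 11 tested members lower and 1 higher. Otx2 fell from a mean of 13.6 to 0.258 RPKM and the methyltransferase gene Dnmt3b from 60.5 to 6.47, whereas Sall2 rose from 3.63 to 39.7.

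Smaller programmes of ESC cultures went as well. Of 12 tested markers of the 2-cell-like state, which a few cells of an ESC culture enter at a time, 8 fell and none rose (median log2 fold change -4.69); Zscan4a was at 21.1, 20.9 and 7.17 RPKM in ESCs, where replicate 3 was lowest, and at 0, 0.241 and 0.0406 RPKM in NPs. The number called depended on single libraries, with 11 lower without NP replicate 2, 2 without NP replicate 1 or 3, and 3, 4 and 6 without ESC replicates 1, 2 and 3. Genes of the Zscan4 cluster are near-identical copies, so their separate counts are uncertain. Germline genes, which DNA methylation silences in somatic cells, had 10 of 18 tested members lower and none higher (median -4.01). Hormad1, a meiotic chromosome axis gene, fell from 8.06, 9.69 and 6.09 RPKM to 0, 0.171 and 0 RPKM (log2 fold change -6.95 ± 0.73 (SE), adjusted p = 6.34e-05), and Piwil2, a piRNA pathway gene, from a mean of 6.54 to 0.268. Dazl and Ddx4, markers of germ cells, were at 0.335, 2.72 and 0.738 and at 0.397, 1.97 and 0.406 RPKM in the NP libraries against ESC means of 14.3 and 6.47, and in both the highest NP value was that of replicate 2. They were not called in the test described above. Both were lower without NP replicate 2 (log2 fold changes -4.74 and -4.02, adjusted p = 1.53e-05 and 1.10e-05), under DESeq2 (-3.54 and -2.84) and with the replicate block (-3.88 and -3.16). The number of germline genes called lower moved with the libraries: it was 15 without NP replicate 2, 4 without ESC replicate 3, and 6 or 7 without any 1 of the other libraries.

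Neural progenitor genes formed the counterpart. Of 36 listed genes, 33 were tested, 28 rose and none fell, with a median log2 fold change of 5.06. Nes, encoding the intermediate filament Nestin, was at 4.63, 4.30 and 3.73 RPKM in ESCs and at 98.1, 59.8 and 76.0 RPKM in NPs (log2 fold change 4.21 ± 0.21 (SE), adjusted p = 1.45e-06). Pax6, a patterning factor of the neural tube, rose from 0.392, 0.343 and 0.368 RPKM to 13.6, 13.6 and 19.2 RPKM (5.39 ± 0.19 on the log2 scale, adjusted p = 4.02e-07). Neither gene overlapped between groups, as was common among tested genes (71.8%). The SOXB1 factors that act with SOX2 in the neural tube rose as Sox2 itself fell, Sox3 from a mean of 2.25 to 64.6 RPKM and Sox1 from 0.642 to 12.4, and in NPs the levels of Sox3 (97.0, 43.9 and 52.8 RPKM) overlapped those of Sox2 (65.6, 50.6 and 53.9 RPKM). Sox9, which marks radial glia-like progenitors, was at 0.0481, 0.0923 and 0.0412 RPKM in ESCs and at 23.8, 22.4 and 18.5 RPKM in NPs (log2 fold change 8.45 ± 0.27 (SE), adjusted p = 3.10e-07). POU factors changed over: while Pou5f1 was lost, Pou3f2 rose from a mean of 0.0532 to 22.4 RPKM, Pou3f3 from 0.0746 to 18.7 and Pou3f4 from 0.145 to 14.97, all of them neural members of the family. Among ZIC factors, Zic1 was at 12.6, 7.91 and 12.9 RPKM in NPs against a mean of 0.0114 in ESCs, and Zic2 was at 10.2 and 9.9996 RPKM. Among structural and surface genes, Msi1, an RNA-binding protein of neural stem cells, reached 129, 68.5 and 89.3 RPKM from 4.98, 4.33 and 7.30 RPKM, Fabp7, a fatty acid-binding protein of radial glia, rose from a mean of 0.0582 to 10.6 and the filament gene Vim from 66.5 to 242. In most of these genes NP replicate 2 was the lowest of the 3 NP libraries.

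Most listed factors that start neurogenesis rose. Of 23 listed proneural and neuronal differentiation factors, 17 passed the level filter, 16 rose and none fell. The 6 others reached 1 RPKM in no library. The list summed to 4.72 to 6.71 RPKM in ESCs and to 133 to 266 RPKM in NPs. Members near 0 in ESCs could pass the filter only through NPs, so the filter partly set the share among those tested. The median log2 fold change was 7.76, or 7.20 when genes without a read in ESCs were set at their lower bound. Neurog1, a proneural factor, was at 0.660, 0.834 and 0.797 RPKM in ESCs and at 81.5, 32.7 and 36.7 RPKM in NPs (log2 fold change 6.03 ± 0.43 (SE), adjusted p = 8.55e-06). Neurog2 had 1 read in each ESC library and stood at 31.1, 20.1 and 26.6 RPKM in NPs, a ratio of 1229 (95% counting interval 420.3 to 5963). Both genes mark progenitor domains of the neural tube, and both exceeded 20 RPKM in every NP library. Ptf1a, a factor of dorsal inhibitory neurons without a read in ESCs, was at least 147-fold higher in NPs. Factors of later steps were lower in level, with Nhlh1 at 26.3, 8.27 and 10.7 RPKM, Insm1 at 12.7, 7.64 and 10.6 RPKM and Myt1 at 7.20, 2.58 and 5.27 RPKM in the NP libraries. Neurod2 and Neurod6, factors of cortical neurons, were at or near 0 in all 6 libraries.

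Neuronal genes gave a mixed picture. Of 81 listed, 59 were tested, 27 rose and 6 fell (median 1.64). Dcx, a microtubule-associated protein of migrating neurons, had 2 reads over all ESC libraries and reached 9.17, 4.83 and 10.3 RPKM in NPs, a ratio of 3249.8 (95% counting interval 899 to 26840.1). Tubb3, the neuronal tubulin most used as a marker, was already at 71.3, 70.6 and 72.6 RPKM in ESCs and at 156, 58.3 and 114 RPKM in NPs, and its groups overlapped. Stmn2 and Nefh fell, from means of 58.9 and 30.04 RPKM in ESCs to 7.98 and 1.84 in NPs, while Stmn3 rose from 7.34 to 30.6 and Nefm from 2.01 to 21.5. The axonal adhesion molecule Cntn2 rose from 1.40 to 20.1 RPKM and Elavl4, an RNA-binding protein of neurons, from 0.406 to 5.69. Of 13 tested synaptic genes 7 rose, some of them to low levels, with Snap25 at 0.985, 0.754 and 1.30 RPKM and Syt1 at 1.46, 0.872 and 1.62 RPKM. Genes of transmitter identity did not follow. Of 12 listed, 5 were tested and none rose, and Slc17a7, a vesicular glutamate transporter, fell from 1.82 to 0.275 RPKM. Among the subtype factors, 10 of 18 tested rose, led by interneuron and motor neuron factors of the ventral and dorsal cord: Lhx1 (31.03, 24.8 and 22.2 RPKM in NPs against a mean of 0.0714), Lhx5 (19.9, 4.80 and 5.28 against 0.0530), Pax2 (9.91, 7.34 and 6.04 against 0.191), Lbx1 (7.39, 2.30 and 4.69 against 0.123) and Mnx1 (11.8, 4.15 and 9.65 against 0.139).

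Of 18 listed glial genes, 10 reached 1 RPKM in no library. Of the 8 tested, 2 rose and none fell, that is 25% rises against 12.4% of all genes tested. The 2 were the glutamate transporter gene Slc1a2, from a mean of 0.0136 to 3.61 RPKM, and Mbp, from 0.447 to 4.16. Mbp is a locus that is also transcribed outside the oligodendrocyte lineage. The astrocyte markers Gfap, Aqp4, Aldh1l1 and S100b summed to 0.0669 to 0.248 RPKM in NPs and to 1.01 to 1.06 RPKM in ESCs, and none was tested. All 9 astrocyte genes of the list summed to 32.7 to 34.7 RPKM in NPs and to 21.9 to 29.2 RPKM in ESCs, most of it from Gja1, a gap junction gene at 12.1 RPKM in ESCs and 19.3 in NPs, and Aldoc, at 9.50 and 9.04 RPKM, neither of which was called.

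Hox genes, which set position along the body axis, rose with few exceptions among those tested. Members near 0 in ESCs could pass the level filter only through NPs, which partly sets this share. Of 39 Hox genes, 28 were tested, 26 rose, 1 fell and 1 was not called, with a median log2 fold change of 9.05, or 8.93 with genes at 0 reads set at their bound. Hoxb9 reached the highest level of any Hox gene, 376, 256 and 235 RPKM in NPs from 1.08, 0.946 and 1.03 RPKM in ESCs (log2 fold change 8.15 ± 0.25 (SE), adjusted p = 2.79e-07). Hoxb6 had no read in any ESC library and 69.5, 72.2 and 97.8 RPKM in NPs, at least 3369-fold higher. Hoxa5 had 1 read over all ESC libraries and 72.0, 37.1 and 49.5 RPKM in NPs, a ratio of 6296 (95% counting interval 1129.6 to 248719). Levels in NPs depended on the position in the cluster. In the A, C and D clusters all genes of paralogue groups 1 to 8 rose and those from group 10 on stayed below 0.3 RPKM in every NP library: Hoxc6 was at 22.3, 22.8 and 24.1 RPKM, Hoxc8 at 3.20, 4.12 and 2.33, Hoxc9 at 0.709, 2.00 and 0.666 and Hoxc10 at 0.0258, 0.0443 and 0. In the B cluster the mean level was instead highest at Hoxb9 and lowest, apart from Hoxb13, at Hoxb1, from 12.4, 18.5 and 10.9 RPKM for Hoxb1 through 31.9, 42.9 and 74.2 for Hoxb4 and 192, 133 and 170.2 for Hoxb8, and Hoxb13 at the far end of the cluster was at 2.36, 3.34 and 2.41 RPKM. Hoxc13 fell, from 1.46, 1.55 and 1.21 RPKM to 0.0200, 0.137 and 0.150 RPKM, a call that was lost without NP replicate 3 or without any 1 of the ESC libraries (adjusted p = 0.00117 to 0.00164). Hoxd9 was at 1.29, 1.03 and 0.303 RPKM in NPs and was not called in the test described above. It was higher under DESeq2 (log2 fold change 3.19) but stayed uncalled without any 1 library. Reads were counted without regard to strand, so Hox genes and the antisense genes that overlap them, such as Hoxb5os across Hoxb5 and Hoxb6, cannot be fully told apart.

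**Figure D3:**
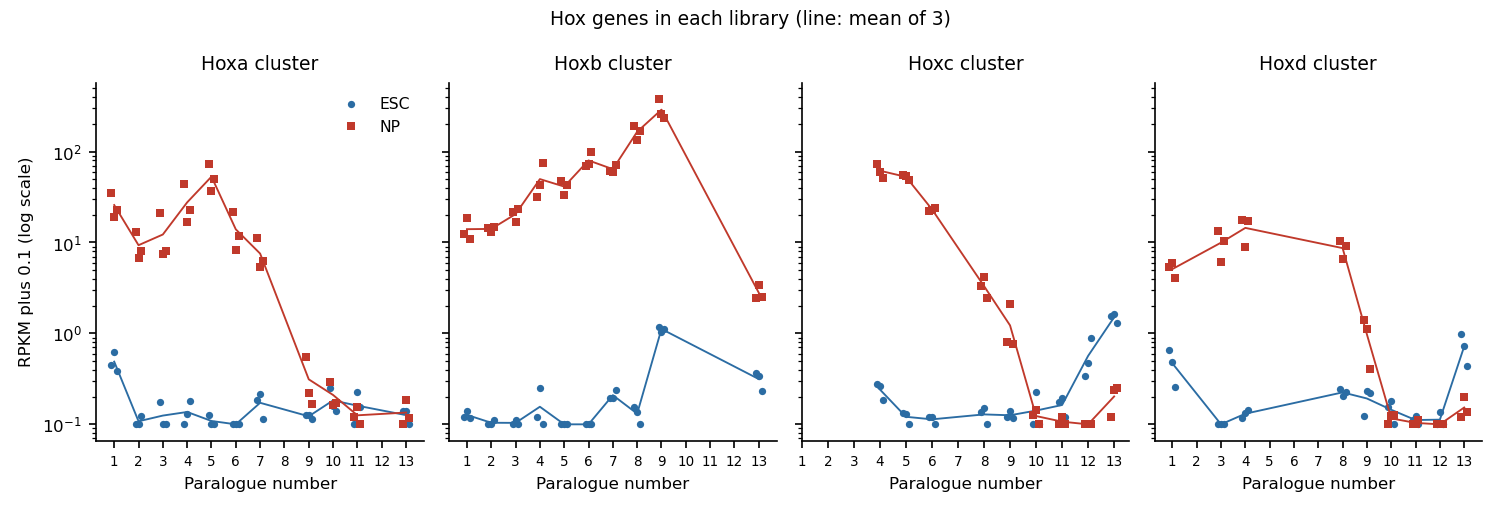
RPKM plus 0.1 on a log scale for the genes of the 4 Hox clusters, ordered by paralogue number, with blue circles for ESC libraries, red squares for NP libraries and lines through the means, which also join genes across paralogue numbers that a cluster lacks. NP levels drop below 0.3 RPKM from paralogue 10 on in the A, C and D clusters, and are highest at Hoxb9 in the B cluster.

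Genes of more anterior levels were mostly absent. Of 15 listed forebrain and midbrain factors, 11 did not reach 1 RPKM in any library, among them Six3, Rax and Dlx2. Of the 4 tested, 2 rose and 1 fell, which was Otx2 as given above. Emx2, also a gene of dorsal forebrain and urogenital tissue, rose from 0, 0.0159 and 0 RPKM to 1.87, 6.07 and 1.54 RPKM and was highest in NP replicate 2. Of 9 tested hindbrain genes 6 rose, including Gbx1 (0.516 to 4.05 RPKM). This list shares Hoxb3, its largest rise, with the Hox genes counted above. Of 6 tested caudal genes 2 rose (Hoxc8 and Hoxc9) and none fell, with a median of 2.87. The tail bud factors Cdx2 (1.92, 0.524 and 1.88 RPKM in NPs) and Nkx1-2 (1.15, 0.466 and 0.906 RPKM) were not called in the test described above. Under DESeq2, with all libraries, both were higher (log2 fold changes 3.03 and 2.63). Nkx1-2 was also higher without NP replicate 2 (log2 fold change 2.93, adjusted p = 5.55e-04).

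Across the dorsoventral axis, genes of all levels appeared in the same libraries. Of 23 tested members 18 rose and 1 fell (median 5.93). Dbx1, which marks intermediate progenitors of the cord, had no read in ESCs and was at 73.9, 57.0 and 78.6 RPKM in NPs, at least 3119-fold higher. The dorsal genes Msx3, Pax3 and Olig3 were at 60.7, 24.9 and 42.9, at 7.07, 7.83 and 14.96 and at 17.6, 10.5 and 6.42 RPKM in NPs, against ESC means of 0.129, 0.0131 and 0.317. The dorsal midline ligand Wnt1 had 2 reads over all ESC libraries and 31.4, 21.8 and 25.5 RPKM in NPs, a ratio of 1993 (95% counting interval 551 to 16461). Ventral genes were present at lower levels, with Olig2, of motor neuron progenitors, at 7.71, 3.42 and 3.83 RPKM, Nkx6-1 at 2.40, 1.12 and 1.44 RPKM and the floor plate genes Foxa2 and Shh at 11.3, 8.65 and 11.9 and 1.52, 3.27 and 1.70 RPKM. Shh had 1 read over all ESC libraries, a ratio of 406 (95% counting interval 72.5 to 16076). Nkx2-2, the factor next to the floor plate, was at 0.223, 0.0294 and 0.0161 RPKM in NPs and was not tested, and Nkx2-9 fell from a mean of 5.05 to 0.922.

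The genes of retinoic acid signalling, the agent applied to these cells, rose in most roles, while the receptors split. Of 27 tested, 20 rose and 1 fell (median 5.91). Rarb, the receptor gene that is itself a direct target, was at 0.279, 0.173 and 0.0843 RPKM in ESCs and at 100.2, 57.2 and 79.2 RPKM in NPs (log2 fold change 8.80 ± 0.37 (SE), adjusted p = 8.30e-07). Rarg, the main receptor of ESCs, fell from 73.3, 77.4 and 43.7 RPKM to 13.5, 9.19 and 4.96 RPKM (-2.81 ± 0.37 on the log2 scale, adjusted p = 2.14e-04). Without NP replicate 2 the fall of Rarg was -2.82 and no longer passed (adjusted p = 0.00117 in edgeR's test). Rara was at 18.8, 18.1 and 24.2 and at 62.5, 42.6 and 45.6 RPKM and stayed under the fold limit. In NPs the order of mean RPKM was therefore Rarb, Rara and Rarg, with the highest Rara value (62.5 RPKM) above the lowest of Rarb. Crabp2, which encodes a cytoplasmic binding protein of the acid, rose from 4.67, 4.26 and 5.06 RPKM to 329, 398 and 488 RPKM (log2 fold change 6.44 ± 0.20 (SE), adjusted p = 2.79e-07). The breakdown enzymes of the CYP26 family rose as well: Cyp26a1 was at 0.533, 0.350 and 0.192 RPKM in ESCs and at 116, 217 and 157 RPKM in NPs (log2 fold change 8.84 ± 0.38 (SE), adjusted p = 8.38e-07), and Cyp26b1 went from a mean of 0.0711 to 117. Dhrs3, which turns retinaldehyde back to retinol, rose from 0.374 to 54.1 RPKM. Of the enzymes that make the acid, Aldh1a1 rose from 0.0320 to 8.81 RPKM, whereas Aldh1a2 was at 4.11, 7.51 and 1.90 RPKM in NPs and was not called. Among further response genes, Nr2f1, Tshz1 and Meis2 were at 57.4, 34.6 and 49.9, at 51.6, 45.0 and 61.8 and at 18.4, 18.8 and 17.0 RPKM in NPs against ESC means of 0.0232, 0.142 and 0.301. Stra8, a germ cell target of retinoic acid, was at 7.67, 6.30 and 6.46 RPKM in ESCs and at 16.02, 123 and 35.8 RPKM in NPs. Replicate 2 stood far above the others, and the gene was not called in the test described above. It was higher under DESeq2 (log2 fold change 3.05), with the line without TET enzymes in the fit (3.11) and without NP replicate 1 (3.56). With the other scalings and the replicate block it stayed uncalled.

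Promoters of Rarb and Cyp26a1 carry direct repeats of the unit bound by retinoic acid receptors, with 5 bases between the units.
They are shown with both units and the spacer in capitals, in the same window of 250 bases before to 50 after the start, from RefSeq on GRCm38.p6; Rarb is chr14:16575427-16575726 on the minus strand and Cyp26a1 chr19:37697558-37697857 on the plus strand:
Rarb: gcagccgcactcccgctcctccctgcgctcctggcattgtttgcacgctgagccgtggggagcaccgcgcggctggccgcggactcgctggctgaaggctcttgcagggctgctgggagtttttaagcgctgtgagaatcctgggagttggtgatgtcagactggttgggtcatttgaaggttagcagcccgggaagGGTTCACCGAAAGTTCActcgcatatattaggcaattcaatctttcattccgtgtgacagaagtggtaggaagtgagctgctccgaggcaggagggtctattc
Cyp26a1: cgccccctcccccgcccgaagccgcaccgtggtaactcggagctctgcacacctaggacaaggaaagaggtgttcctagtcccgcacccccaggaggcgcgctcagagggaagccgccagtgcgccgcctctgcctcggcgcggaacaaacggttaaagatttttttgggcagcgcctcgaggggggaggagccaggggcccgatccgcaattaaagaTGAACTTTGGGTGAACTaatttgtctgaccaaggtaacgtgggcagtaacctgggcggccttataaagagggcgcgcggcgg

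In Rarb the repeat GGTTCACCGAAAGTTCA lies 53 to 37 bases before the start. In Cyp26a1 it lies 32 to 16 bases before the start and reads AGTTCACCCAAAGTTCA on the other strand. The search took as a unit AGGTCA, or the same with its first 3 bases replaced by AGT, GGT or GGG, and looked for any pair of units on both strands, with no other spacing allowed; 32 of 32851 promoter windows hold such a repeat (0.0974%), belonging to 31 genes. Of these genes 6 were tested: Rarb, Cyp26a1, Ppbp and Syndig1 were called higher, none lower, and 2 were not called. None of the Hox genes that rose was among them, which says only that the letters are not in these windows.

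Signalling pathways of the neural tube gained ligands and receptors unevenly. In the Notch pathway, by which neighbouring progenitors hold each other undifferentiated, 11 of 24 tested genes rose and 1 fell. The ligand genes Dll1 and Dll3 rose from means of 1.34 and 1.57 to 16.3 and 15.2 RPKM, the receptor genes Notch1 (6.34 and 17.1) and Notch2 (5.90 and 11.03) were not called, and Notch4 fell from 5.15 to 1.08. Hes5, a direct target, was at 0, 0.105 and 0.0626 RPKM in ESCs and at 51.8, 20.6 and 36.6 RPKM in NPs (log2 fold change 9.22 ± 0.60 (SE), adjusted p = 5.39e-06), while the target Hes1, at 11.8, 12.2 and 12.9 and 35.4, 37.2 and 33.6 RPKM, did not reach the fold limit.

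Of 41 tested Wnt genes 23 rose and 1 fell, that is 56.1% rises against 12.4% of all genes tested. Of 13 tested ligand genes 9 rose and none fell, including Wnt4 (0.343 to 8.85 RPKM), Wnt9a (0.549 to 7.12) and Wnt10b (0.0142 to 2.21). Among Frizzled receptors Fzd2 went up from 1.77, 1.64 and 2.35 RPKM to 44.6, 43.5 and 38.9 RPKM and Fzd5 went down from 27.0, 25.1 and 26.8 RPKM to 1.30, 1.48 and 1.24 RPKM (log2 fold changes 4.46 ± 0.17 and -4.29 ± 0.13, adjusted p = 5.63e-07 and 2.79e-07). Feedback targets of the pathway rose, Axin2 from 4.21 to 13.7 RPKM and Sp5 from 0.851 to 4.08. Lgr5, an R-spondin receptor, went from 0.0121 to 5.18 (log2 fold change 8.68 ± 0.30 (SE), adjusted p = 3.36e-07).

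For BMP and TGF-beta genes 11 of 32 tested rose and 6 fell, and the 2 directions held different branches. Genes of Nodal and activin signals fell (Nodal, Gdf3, Lefty1 and Lefty2, and Inhbb from 17.7 to 0.113 RPKM), whereas BMP ligands such as Bmp7 (1.45 to 27.8) and the BMP targets Id1, Id2 and Id3 rose, Id3 from 33.3, 32.2 and 22.5 RPKM to 167, 239.9 and 242 RPKM (log2 fold change 2.88 ± 0.21 (SE), adjusted p = 9.04e-06). FGF genes had 5 rises and 7 falls among 26 tested (19.2% and 26.9%, against 12.4% and 9.98% over all genes tested). The ligand genes Fgf4 and Fgf17 fell, the latter from 18.8 to 0.264 RPKM, together with the feedback and target genes Spry4 (43.4 to 0.389), Etv4 (37.6 to 3.77) and Etv5 (58.0 to 1.76), while receptor genes of neural tissue rose, Fgfr3 from 0.321 to 17.7 and Fgfr2 from 1.52 to 18.5. In the Sonic hedgehog pathway 6 of 13 rose and 1 fell. The co-receptor genes rose, Gas1 from 0.235, 0.467 and 0.331 RPKM to 91.4, 92.7 and 79.2 RPKM (log2 fold change 7.98 ± 0.22 (SE), adjusted p = 2.45e-07), Boc from a mean of 1.63 to 43.5 and Cdon from 4.08 to 24.1, and so did the signal transducer gene Smo, from 6.601 to 42.3. The target genes Ptch1 (13.7 and 17.3 RPKM) and Gli1 (20.7 and 12.1) were not called.

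Adhesion and guidance genes rose more often than they fell. Among cadherins 9 of 11 tested rose and none fell; Cdh2, N-cadherin, went from 1.11, 1.26 and 1.18 RPKM to 15.5, 16.7 and 20.8 RPKM (log2 fold change 3.90 ± 0.16 (SE), adjusted p = 7.15e-07), while Cdh1, E-cadherin, was at 123, 121 and 133 RPKM in ESCs and kept 60.9, 61.4 and 63.8 RPKM in NPs, so that its level there stayed above that of N-cadherin. Of 57 clustered protocadherins, adhesion molecules by which neurons tell their own branches from others, 21 were tested, and 15 of these rose and none fell, all at low levels; Pcdhb22, the most abundant of the called β genes, reached 3.55, 2.07 and 2.66 RPKM. Axon guidance genes had 10 of 14 rises and no falls, led by Unc5a, a netrin receptor, at 0.585, 0.492 and 1.57 RPKM in ESCs and 114, 45.8 and 70.1 RPKM in NPs (log2 fold change 6.42 ± 0.53 (SE), adjusted p = 1.84e-05), and by Robo3, a receptor of crossing axons, at 24.98, 5.90 and 16.2 RPKM in NPs. Ephrins and Eph receptors had 11 rises and 1 fall among 19 tested, with Efnb1 up from 1.49 to 32.5 RPKM, Ephb2 from 2.37 to 24.8 and Epha2 down from 49.7 to 16.3. For Epha3, 1 read over all ESC libraries stood against 17.3, 12.01 and 14.2 RPKM in NPs, a ratio of 5247 (95% counting interval 941 to 207285). Semaphorins and plexins had 10 rises and 1 fall among 23.

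Most epithelial genes did not fall with the ESC state, and in a list of epithelial factors, keratins and claudins 7 of 14 tested rose and 2 fell. Of 12 tested claudins, the sealing proteins of tight junctions, 9 rose and none fell (5 to 7 rose without any 1 library), with Cldn6 at 30.4, 30.8 and 33.8 RPKM in ESCs and 178, 153 and 191 RPKM in NPs (log2 fold change 2.46 ± 0.12 (SE), adjusted p = 1.65e-06). Among 10 tested keratins 8 rose (5 to 7 without any 1 library) and 1 fell, chiefly those of simple epithelia: Krt18 went from 12.6, 14.7 and 8.80 RPKM to 309, 305 and 256 RPKM (4.59 ± 0.21 on the log2 scale, adjusted p = 1.03e-06), Krt8 from a mean of 6.45 to 118 and Krt19 from 4.87 to 117. None of these 3 keratins overlapped between groups, which held for 71.8% of all tested genes. Markers of stratified epidermis (Trp63, Krt5 and Krt14) summed to 0.0625 to 0.314 RPKM in NPs and to 0.146 to 0.278 RPKM in ESCs. Of 30 tested collagens 11 rose and 5 fell, with the basement membrane chains Col4a1 and Col4a2 up from 16.2 and 5.19 to 68.0 and 54.3 RPKM and the cartilage and notochord chain Col2a1 from 3.88 to 66.6, while none of 7 tested laminins was called.

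Markers of other lineages were present in the NP libraries, in part at different levels between them. Of 13 tested endoderm genes 6 rose, 2 fell and 5 were not called (median 1.56). The 6 endoderm markers summed to 1.12 to 2.03 RPKM in ESCs and to 20.6 to 26.5 RPKM in NPs. Foxa2, also a floor plate gene, made up the largest part of the sum in NPs. There Sox17 was at 2.91, 4.39 and 4.76 RPKM, Gata6 at 3.97, 5.48 and 3.57 RPKM and Ttr at 0.928, 1.14 and 1.97 RPKM. Gata4, at 1.27, 1.53 and 3.78 RPKM in NPs, was not called, and Afp, at 0.234, 0.590 and 0.439 RPKM, was not tested. Among mesoderm genes 5 of 14 tested rose and 4 fell, with a median of -1.59; the balance turned with the libraries, to 1 or 2 rises and 4 falls without any 1 of the ESC libraries and to 4 rises and 6 falls without NP replicate 2. Meox1, of somites, was at 9.25, 24.5 and 5.10 RPKM in NPs against 0.3797, 0.578 and 0.574 RPKM in ESCs, and Foxc2 at 7.98, 8.43 and 1.12 RPKM; NP replicate 2 held the highest value of both. Pecam1, an endothelial gene that ESCs also express, fell from 29.4 to 0.498 RPKM. Of 9 tested fibroblast genes 2 rose and none fell, that is 22.2% rises against 12.4% of all genes tested. The collagen gene Col3a1 was at 9.15, 8.76 and 1.003 RPKM in NPs against an ESC mean of 0.0502 and highest in replicate 1. Its call was lost without ESC replicate 1 or 3 or NP replicate 1 (adjusted p = 0.00222, 0.00282 and 0.00175). The matrix gene Postn was at 0.679, 1.497 and 0.462 RPKM, highest in replicate 2. Col1a1, at 6.76, 17.9 and 1.57 RPKM, and Acta2, a smooth muscle actin gene at 42.7, 99.1 and 24.5 RPKM in NPs, were also highest in replicate 2. Both missed the limit on adjusted p (log2 fold changes 2.85 and 4.76, adjusted p = 0.00795 and 0.00127). Acta2 was higher under DESeq2 (4.70) and with the replicate block (4.99), and Col1a1 without NP replicate 3 (3.37). Neural crest genes had 5 rises and 1 fall among 12 tested, but Sox10, a defining marker, was at 0.0363, 0.374 and 0.102 RPKM in NPs and Foxd3, also an ESC gene, fell from 21.3 to 2.11; the receptor gene Ednrb, which neural progenitors share, was the highest of the list at 38.5, 26.6 and 40.7 RPKM. Trophoblast factors had 2 rises and 5 falls among 9. The part of such cells in the other results was not tested.

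Few genes of proliferation and basal metabolism were called. None of 26 tested proliferation genes was called, with a median log2 fold change of -0.46 and a range of -1.22 to 0.47. Their sum was lower in NPs, at 1514, 1511 and 1646 RPKM against 2144 to 2173 RPKM in ESCs. Against that median, Mki67 went up (log2 fold change 0.43), from 45.6, 41.5 and 45.1 RPKM in ESCs to 63.4, 51.4 and 62.8 RPKM in NPs. Top2a was at 162, 158 and 183 and at 129, 156 and 171 RPKM. Of 11 tested cyclins and kinases of G1, 2 rose, 1 fell and 8 were not called. Ccnd2, cyclin D2, rose from 2.31, 2.48 and 1.96 RPKM to 221, 173 and 211 RPKM (log2 fold change 6.49 ± 0.17 (SE), adjusted p = 2.45e-07), and Ccne1, cyclin E1, fell from 98.0, 96.4 and 98.4 RPKM to 25.2, 26.1 and 27.0 RPKM (-1.90 ± 0.10 on the log2 scale, adjusted p = 1.72e-06). Of 15 tested cell cycle inhibitors 4 rose, that is 26.7% against 12.4% of all genes tested. Among them were Cdkn1c, which is imprinted, up from a mean of 8.96 to 84.7 RPKM, and Gadd45g, from 4.17 to 66.7. Among MYC genes Mycl rose from 5.86 to 55.5 RPKM, and Mycn (62.0 and 54.1) and Myc (18.5 and 13.1) were not called.

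Cytosolic ribosomal protein genes had 4 falls and no rise among 83 tested, mitochondrial ribosomal proteins none called among 77, respiratory chain genes 2 falls among 89 and proteasome genes 1 fall among 38, all below the share over all genes. Most of these falls were of tissue-restricted copies: Rpl10l (91.3 to 0.796 RPKM), Rpl39l (128 to 4.06), Rpl3l (1.31 to 0.183), Cox7a1 (17.9 to 3.13) and Psma8 (12.8 to 0.144). Reads of a gene with near-identical copies can be lost or shared in counting, and levels of such genes are uncertain; Gapdh, which has many pseudogenes, was at 7.81 RPKM in ESCs. Among 25 glycolytic genes 2 rose and 1 fell. The glucose transporter gene Slc2a1 rose from 129, 113 and 154 RPKM to 594, 379 and 375 RPKM (log2 fold change 1.77 ± 0.21 (SE), adjusted p = 1.24e-04), and Pfkp, a platelet-type phosphofructokinase, fell from a mean of 40.2 to 4.72. The rise of Slc2a1 was 1.52 without NP replicate 1, below the fold limit, and Pfkp lost its call without NP replicate 2. Levels of glycolytic genes differed between NP libraries, their sum being 3595, 2668 and 2075 RPKM in replicates 1, 2 and 3 against 1808 to 2367 RPKM in ESCs. Hypoxia response genes followed the same order of libraries, with sums of 1149, 788 and 635 RPKM against 279 to 366 RPKM in ESCs; 4 of 17 tested rose and none fell, or 2 without NP replicate 1 and 6 without NP replicate 3, among them Vegfa (48.3, 40.4 and 32.1 RPKM in NPs) and Egln1 (83.8, 47.9 and 38.6 RPKM). Among 19 genes of one-carbon and serine metabolism only Tdh was called, and the median was -0.66. None of the 22 tested cholesterol synthesis genes fell and 1 rose. Amino acid stress genes Asns and Trib3 fell, from 201 and 14.3 to 44.4 and 1.97 RPKM. Their list had 2 falls and 2 rises among 15 tested (13.3% each, against 9.98% and 12.4% over all genes tested).

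Genes of DNA methylation and chromatin, which bear on the study's main assay, changed in part. Of 16 tested methylation genes 3 rose and 4 fell (18.75% and 25%, against 12.4% and 9.98% over all genes tested). The de novo cofactor gene Dnmt3l fell from 159, 171 and 134 RPKM to 0.214, 0.580 and 0.139 RPKM (log2 fold change -8.92 ± 0.40 (SE), adjusted p = 9.95e-07). The maintenance genes Dnmt1 (80.0, 79.2 and 80.4 RPKM in ESCs, 76.0, 66.3 and 68.8 in NPs) and Uhrf1 (118 and 57.8 RPKM on average) were not called. Uhrf1 was lower in NPs and missed only the fold limit (log2 fold change -1.03, adjusted p = 5.92e-05). The TET dioxygenases, which oxidize methylcytosine, changed over: Tet1 fell from 68.4 to 4.37 RPKM, Tet2 from 19.9 to 3.47, and Tet3 rose from 0.752 to 8.21. Subunits of the BAF remodeller exchanged in part, Smarcc2 and Bcl11a rising from 9.12 and 0.0827 to 36.6 and 2.87 RPKM, while the neuronal subunit gene Actl6b stayed at 0.773, 0.109 and 0.314 RPKM. Polycomb genes moved in both directions. Cbx7, the main CBX reader of ESCs, fell from 51.2, 50.7 and 52.7 RPKM to 3.55, 8.70 and 3.48 RPKM (log2 fold change -3.29 ± 0.35 (SE), adjusted p = 7.03e-05), and Cbx2 and Cbx8, which are neighbours on chromosome 11, rose from means of 13.1 and 0.386 to 43.0 and 3.66 RPKM. Eed, Mtf2 and Jarid2, subunits of PRC2, fell to 20.2, 17.0 and 30.04 RPKM from 74.0, 78.1 and 97.7, and its catalytic gene Ezh2 was at 31.1 and 36.4 RPKM. Of 26 tested imprinted genes 14 rose and 2 fell. Igf2 was at 2.66, 4.39 and 1.20 RPKM in ESCs and at 226, 226 and 55.7 RPKM in NPs, and its neighbour H19 at 14.8, 19.4 and 6.20 and at 237, 1274 and 254 RPKM (log2 fold changes 5.94 ± 0.69 and 5.45 ± 0.80, adjusted p = 1.10e-04 and 4.24e-04); the spread of both over the NP libraries was wide, and H19 lost its call without any 1 of the ESC libraries (adjusted p = 0.00136 to 0.00264). Peg3 rose with less spread, from a mean of 6.21 to 85.1 RPKM.

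**Figure D4:**
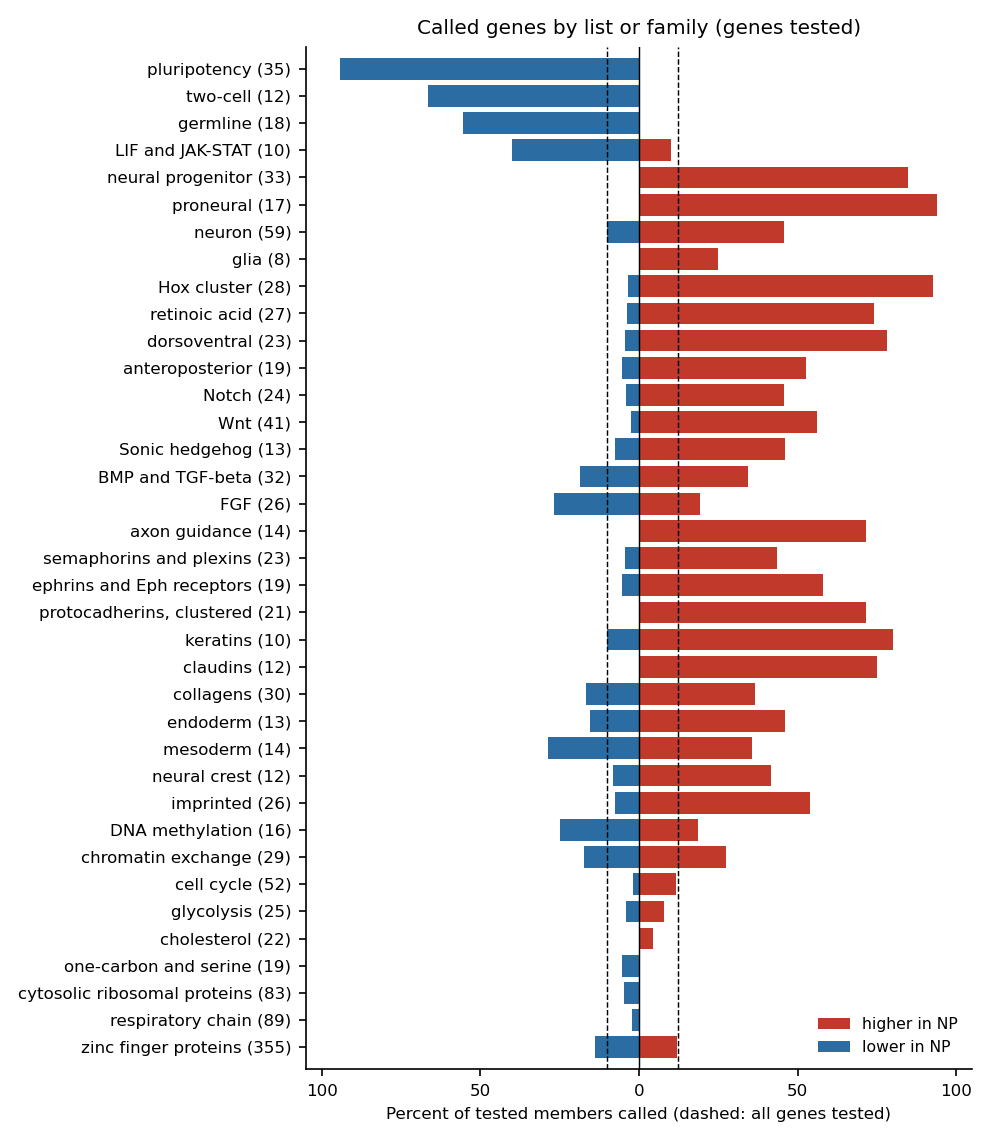
Share of tested members called higher (red, to the right) or lower (blue, to the left) in NPs for gene lists and families, in percent, with the number tested in brackets and dashed lines at the shares over all tested genes (12.4% higher, 9.98% lower). Pluripotency, 2-cell and germline genes stand out on the left, Hox, proneural, neural progenitor and dorsoventral genes on the right, and housekeeping families lie inside the dashed lines.

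Families were also described without a chosen list. Genes were grouped by the letters of their symbol before the first digit, and 115 such stems had at least 12 tested genes. Only tested genes were counted. Members such as Hoxb6 and Pcdhb5, with 0 and 1 read over all ESC libraries, passed the filter through NPs alone. Shares of such stems were partly set by the filter and are no separate support for the lists. The largest shares of rises were those of Hoxb and Pcdhb (12 of 12 each), Cldn (9 of 12), Wnt (9 of 13), Sox (9 of 15, with 2 falls), Adamts (7 of 13), Sema (7 of 16) and Prdm (5 of 14). The largest shares of falls were those of Platr, non-coding RNAs named for ESC expression (17 of 20), Pla (7 of 13), Tex, named for testis expression (7 of 14), Zscan (7 of 18), Klf (5 of 14), Myo (6 of 18), Tnfrsf (3 of 12) and Trim (8 of 37). Runs of neighbouring tested genes called in the same direction showed where such families lie. The longest runs of rises were 14 genes of the HoxA cluster on chromosome 6, 12 β protocadherins on chromosome 18, 11 genes of the HoxC cluster and next to it on chromosome 15 and 2 runs of 6 genes of the HoxB cluster on chromosome 11, with a further run of 6 on chromosome 17 from Haghl to Fbxl16. The longest runs of falls were of another kind, 13 genes on chromosome 4 between Platr16 and Zfp600, 11 on chromosome 7, 10 on chromosome 13 and 8 on chromosome 4, which hold Zfp genes and many genes or pseudogenes known only by a clone number, and 7 genes on chromosome 17 that included Glp1r, a peptide hormone receptor, and Abcg1, a sterol transporter. In the run on chromosome 4 Zfp600 fell from a mean of 9.93 to 0.0686 RPKM and Zfp980 from 6.06 to 0.0428; such genes resemble each other closely, so that their separate counts are uncertain. Zinc finger proteins named Zfp as a whole were not one-sided, with 42 rises and 49 falls among 355 tested.

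Genes expressed in one group only were few by a strict limit. At 5 RPKM or more in every library of one group and below 0.1 in every library of the other, 65 genes were on in NPs only and 28 in ESCs only. Highest among the first were the antisense gene Hoxb5os (318, 434 and 425 RPKM in NPs, at least 5915-fold higher), Hoxb8, Hoxb6, Dbx1, Hoxa5, Hoxc5, Nr2f1, Hoxb5, Ednrb and Hoxa4. Among the second were Tcl1, a co-activator of the AKT kinase, at 65.5, 63.0 and 77.0 RPKM in ESCs and 0.0267, 0.0458 and 0 RPKM in NPs, the non-coding Platr10 at 69.8, 71.4 and 57.6 and 0.0282, 0.0242 and 0 RPKM, and Mymx, a membrane fusion peptide gene of muscle, at 47.4, 50.8 and 38.4 and 0.0479, 0.0824 and 0 RPKM. The ESC-only count rose to 61 when NP replicate 2 was left out. The largest fitted fall was that of Aoah, which encodes a lipopolysaccharide-degrading enzyme, at 7.01, 7.47 and 5.21 RPKM in ESCs with no read in NPs, at least 843-fold lower.

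Classes of transcripts and promoters differed between the 2 directions. Protein-coding genes had 1724 rises and 1253 falls among 12912 tested, lincRNAs 51 rises and 89 falls among 358, so that 24.9% of lincRNAs fell against 9.98% of all genes, and processed pseudogenes 7 rises and 60 falls among 675. The CpG number of 300 bases around the gene's 5′ end differed between falling and other protein-coding genes. The median was 9 CpGs for genes that fell, 18 for those that rose and 19 for all tested, and 31.5% of the genes that fell had at most 5, against 13.7% of those that rose and 12.3% of all. By number of CpGs, the share that fell went from 24.9% at 0 to 5 CpGs to 4.56% at 31 or more, whereas the share that rose was 14.9% and 16.5% at these ends and 10.6% at 21 to 25. No test was made of this pattern.

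**Figure D5:**
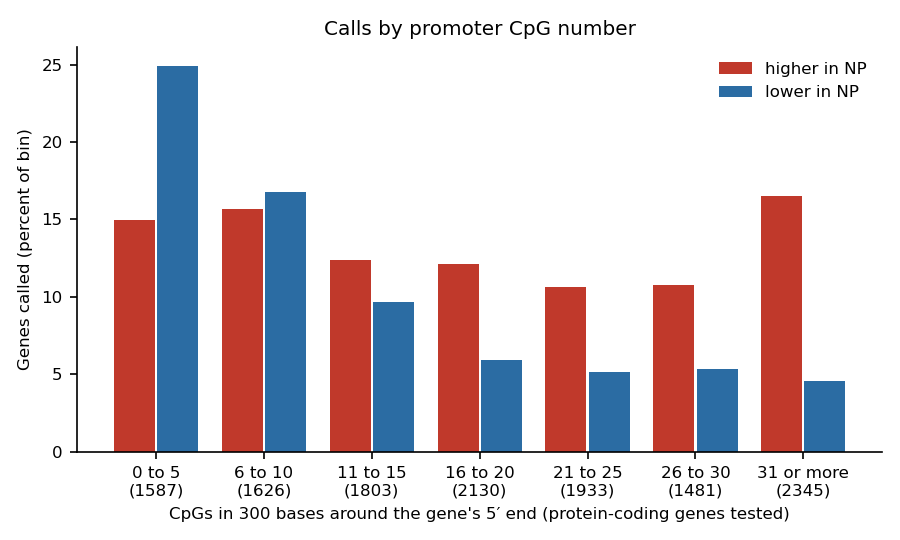
Share of tested protein-coding genes called higher (red) or lower (blue) in NPs, in percent on the vertical axis, by the number of CpGs in 300 bases around the 5′ end, with the number of genes below each pair of bars. The blue bars drop from 24.9% to 4.56% with rising CpG number, and the red bars are lowest in the middle.

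Hes5, which rose, and Aoah, which fell, are shown as examples of a promoter with many and one with few CpGs, with every CpG in capitals.
Hes5 holds far more CpGs than the median gene that rose.
Windows are as before, from RefSeq on GRCm38.p6, with Hes5 at chr4:154960673-154960972 and Aoah at chr13:20793863-20794162, both on the plus strand:
Hes5: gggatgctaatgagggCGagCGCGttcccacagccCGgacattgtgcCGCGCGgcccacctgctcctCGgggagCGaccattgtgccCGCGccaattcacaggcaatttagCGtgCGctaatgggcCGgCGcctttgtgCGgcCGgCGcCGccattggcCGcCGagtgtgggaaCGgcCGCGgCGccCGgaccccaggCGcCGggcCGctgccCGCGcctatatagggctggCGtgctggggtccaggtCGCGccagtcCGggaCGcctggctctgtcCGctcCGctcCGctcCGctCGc
Aoah: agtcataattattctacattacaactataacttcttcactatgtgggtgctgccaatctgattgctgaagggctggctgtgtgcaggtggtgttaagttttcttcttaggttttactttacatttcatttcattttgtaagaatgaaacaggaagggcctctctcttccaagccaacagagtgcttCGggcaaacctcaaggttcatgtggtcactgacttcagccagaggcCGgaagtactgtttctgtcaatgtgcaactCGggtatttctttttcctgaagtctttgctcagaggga

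Hes5 has 41 CpGs in its window and Aoah 3, and the Nanog window given above holds 4.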

How the data were processed

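Poly(A) RNA libraries were made by the authors with a stranded kit from 500 ng of RNA and read as single ends of 50 bases on 2 lanes. Per the labels and the study's methods, reads were trimmed (Trimmomatic 0.38), aligned (STAR 2.6.1b) to GRCm38 and assigned to Ensembl genes with featureCounts. The deposited values are raw read counts per gene, and per the file headers the counting ignored strand, so overlapping and antisense genes share reads. Library totals ran from 20519702 to 23976914 counted reads, and intervals and floors cover counting error only.

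The ESC and NP count tables were joined by gene, named from the reference annotation, and scaled with TMM factors in edgeR 4.0.16 (R 4.3.3). RPKM was computed from the counts, the deposited exon lengths and the scaled totals. Values marked SE were derived from the test below, as the absolute log2 fold change divided by the square root of its F statistic. Genes with 1 RPKM or more in at least 1 library were tested with edgeR's quasi-likelihood F-test between the 3 NP and 3 ESC libraries without covariates, after the authors' thresholds (fold of 3, Benjamini-Hochberg adjusted p of 0.001). As worded, the study's methods discarded genes above 1 RPKM, the reverse of the filter used here, which kept them. A gene with no count in a group was given a bound against 3 counts over the group, and one with 1 to 3 counts a ratio with a 95% interval. The fit was tested on simulated data. Alternatives were other scalings, DESeq2 1.42.0, other filters and thresholds, the line without TET enzymes added to the fit, a replicate block and each library left out. Other steps used Python 3.11.15 with numpy 2.4.6, pandas 2.3.3, scipy 1.17.1 and matplotlib 3.10.9, and promoter sequences came from RefSeq (GRCm38.p6).

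Libraries were grouped by the ESC and NP labels. Members and gene lists were chosen with earlier results of these data known, so list counts are descriptions. Genes named are list and family members, in each direction the 25 called genes of largest fold (10 counts or more in each library where they were higher), the 15 of largest difference in RPKM, the 10 highest per group, the 10 highest found in one group only, and the members of the 5 longest genomic runs; Pipox, Astn1, Nrarp, Ppbp and Syndig1 are named for their promoters. Columns of the methylation files and the line without TET enzymes were not used here, other than the latter in 1 alternative fit. A few genes are not reported here.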

Additional observations from a re-analysis of the deposited data

How the results depend on the processing

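No called gene of the 3408 turned its direction under any of the 16 alternatives. Counts were within 1.5 times of the 1891 higher and 1517 lower genes under the other scalings, DESeq2 (2077 and 1821), a fold of 2, a test against a fold of 3 and the fit with the line without TET enzymes. Without the filter on low values 2588 genes were lower, and with at least 10 counts in every library 842, since that filter removes genes that are off in 1 group. At an adjusted p of 0.05 with no fold limit 4996 genes were higher and 4738 lower, and the calls over the gene lists went from 628 to 1286. Upper quartile scaling moved the median log2 fold change of all genes to -0.23 from 0.04 and gave 1571 higher and 1847 lower genes. With any 1 library left out, 1391 to 1841 genes were higher and 1073 to 1572 lower, 66 to 74 were on in NPs only and 29 to 61 in ESCs only, the highest of these without NP replicate 2 (61). With limits of 1 and 0.5 RPKM, 624 and 654 genes were on in NPs only and in ESCs only. No sign of pairing by replicate number was seen. Deviations of same-numbered ESC and NP libraries correlated at -0.06, 0.01 and -0.13, and no ESC library was closest to its own number. With 3 libraries per group this cannot exclude pairing, on which the labels are silent. The replicate block gave 1887 higher and 1528 lower genes. Of 52 lists and families with unequal counts, 8 had the other direction in the majority under some alternative: mesoderm, FGF, glycolysis, immediate early, ribosomal, respiratory chain, zinc finger and melanoma antigen genes. Of 193 called genes among those named, 30 lost the call without some library, among them Abcg1, Axin2, Col3a1, Cox7a1, Dll3, Emx2, Epha2, Foxc2, Hoxc9, Id1, Meox1, Nkx2-9, Rpl39l, Rpl3l, Slc17a7, Snap25, Socs3, Sp5, Stmn3, Syt1, Trib3, Trim28, Ttr, Tuba1a and Wnt9a, and 9 under another scaling or DESeq2. The cause was not tested.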

Other observations

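Several further lists had shares near those over all genes tested, which were 12.4% higher and 9.98% lower. Immune and complement genes had 2 rises and 2 falls among 13 tested genes (15.4% each) and p53 targets 2 falls among 15 (13.3%). Immediate early genes had 3 rises and 2 falls among 11 (27.3% and 18.2%). Solute carriers had 27 rises and 37 falls among 211 (12.8% and 17.5%) and potassium channels 5 and 5 among 28 (17.9% each). Kinesins had 7 and 1 among 33 (21.2% and 3.03%) and melanoma antigen genes 3 and 1 among 11 (27.3% and 9.09%). In tubulins 2 of 14 rose, of which Tuba1a went from a mean of 90.8 to 299 RPKM, and 2 fell. The largest losses in mean RPKM after Dppa5a included Trim28, a co-repressor of repeats, which fell from 894, 900.2 and 836 RPKM to 311, 269 and 291 RPKM.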
